A study of Homo sapiens with 6 samples.

Results

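Poly(A) 3′-sequencing peaks are short genomic intervals in which sequencing reads that start next to a poly(A) tail pile up. The 9 megabase-wide bins described here were chosen by a measured value, the number of peaks they hold outside annotated genes. All peaks with a summit in these bins were taken as members, on the human genome build GRCh38, which gave 1399 of the 200023 peaks in the list. The bins were chr6 120-121 Mb, chr5 70-71 Mb, chr12 85-86 Mb, chr15 30-31 Mb, chr3 117-118 Mb, chr15 32-33 Mb, chr16 30-31 Mb, chr1 150-151 Mb and chr9 41-42 Mb. They held 553 intergenic peaks, between 42 and 108 per bin, where the median over the 2587 bins with any intergenic peak was 5. The lowest member bin, chr9 41-42 Mb, had 42 intergenic peaks, a count shared by chr1 228-229 Mb, which is no member. The next bin in order, chr14 104-105 Mb, had 41. Bins with counts inside the same range that are no members were chr2 15-16 Mb with 77, chr6 27-28 Mb with 71, chr6 28-29 Mb with 69, chr2 66-67 Mb with 59, chr3 144-145 Mb with 48, and chr22 49-50 Mb and chr7 149-150 Mb with 45 each. The count of intergenic peaks is therefore a description of the choice and supports nothing.

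The RNA came from IMR-32, an established human neuroblastoma cell line. The 6 libraries were biological duplicates of 3 groups, a DMSO solvent control and treatment with THZ531 at 400 nM lasting either 2 h or 6 h. THZ531 binds CDK12 and CDK13 covalently and inhibits these kinases, which phosphorylate the tail of RNA polymerase II. The peaks were called once on reads merged over the samples, so the list carries neither a value per library nor a strand, the groups and duplicates could not be compared, and no depth per library is known. Each peak is described by the reads at its summit, the number of reads of 100 bp that cover it, which was solved from the deposited fold enrichment and p-value. The neuroblastoma markers HAND2, GATA3, ISL1, TH, DBH, CHGA, CHGB and MYCN each had a peak at a transcript end, with 19 to 100 reads at the highest. Of the markers of other cell types, 0 of 3 for blood, 0 of 2 for endothelium, 2 of 3 for fibroblasts and 1 of 2 for epithelium did, with at most 15 reads.

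Cleavage and polyadenylation release an RNA from the polymerase, usually a short distance after a hexamer such as AATAAA, and give it the tail that oligo(dT) primers bind. The same primers can also bind a run of A inside an RNA, so a peak beside a genomic A stretch can arise within a transcript. A peak outside genes can have at least 3 origins. It can lie on an unannotated noncoding RNA, it can lie on RNA that continued past the end of a gene (read-through), or it can be placed there because the sequence has a near-identical copy elsewhere and the reads fit both. The peaks are described here by the direction in which their sequence reads and by their distance from the nearest gene end upstream. The number of places in the genome with the same sequence is given as well. A peak can combine these features, so they do not settle the origin of a single peak.

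Sequences at the 3′ edges of intergenic peaks in chr12 85-86 Mb and chr3 117-118 Mb are given first, from GRCh38 and 5′ to 3′, because they show the A stretch from which a direction was read. Each is the tallest peak with a putative strand in the longest run of its bin, and shows the last 100 bases of the peak and the 50 bases past it. Capitals mark polyadenylation hexamers in the peak and the stretch of 25 bases past it that is richest in A. The chr12 sequence lies at chr12:85448229-85448378 on the plus strand (17 reads, 18 A of 25, 0 hexamers) and the chr3 sequence at chr3:117231240-117231389 on the minus strand (10 reads, 19 A of 25, 1 hexamer).
chr12 run: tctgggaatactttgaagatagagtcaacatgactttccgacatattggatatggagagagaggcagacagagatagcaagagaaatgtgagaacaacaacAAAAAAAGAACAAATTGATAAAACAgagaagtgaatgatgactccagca
chr3 run: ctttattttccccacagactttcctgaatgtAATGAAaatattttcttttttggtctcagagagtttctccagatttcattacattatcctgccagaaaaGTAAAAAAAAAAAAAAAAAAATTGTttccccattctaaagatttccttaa

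Of the 1399 member peaks, 553 (39.5%, 95% Wilson interval 37.0 to 42.1) were intergenic, compared with 10.2% of all peaks on chromosomes, a difference that the choice of the bins fixes. Introns held 543 (38.8%), transcript ends 222 (15.9%) and other exons 81 (5.79%). Intervals of shares cover counting error only. The intergenic peaks were divided in a fixed order. A near-identical copy, meaning that the 100 bases centred on the summit match another place at 95 or more positions, was found for 231 (41.8%, 37.7 to 45.9), where the share over all intergenic peaks of the list was 26.7%. A further 66 (11.9%, 9.49 to 14.9) had no copy and lay within 10 kb past a gene end, compared with 35.2% in the list, and 256 (46.3%, 42.2 to 50.5) had neither feature, compared with 38.1%. The median was 11 reads in the first and in the second set and 8 reads in the third.

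**Figure D1:**
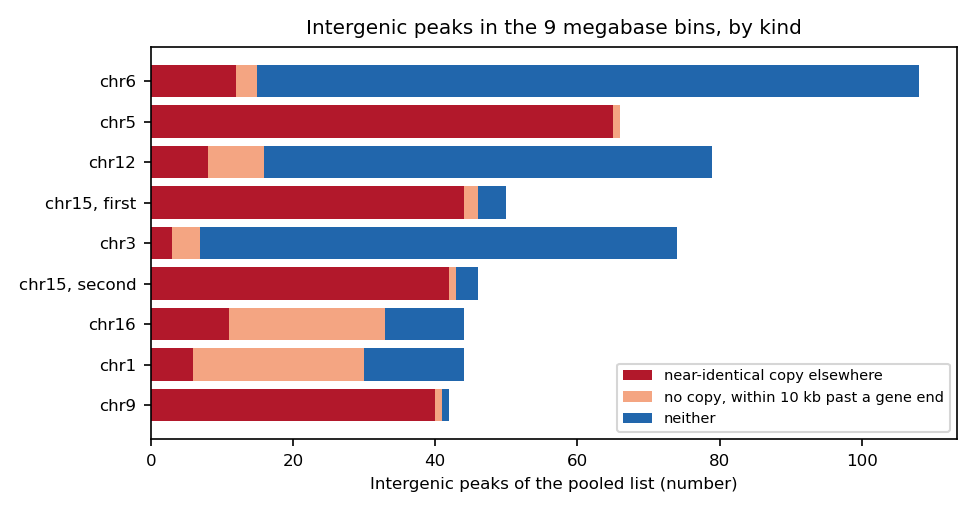
Number of intergenic peaks (x axis) in each of the 9 bins (y axis, named by chromosome, with chr15 30-31 Mb as the first and chr15 32-33 Mb as the second bin of chr15), divided into peaks with a near-identical copy, peaks without a copy within 10 kb past a gene end, and peaks with neither. The chr5, chr9 and both chr15 bars are mostly copies (65 of 66, 40 of 42, 44 of 50 and 42 of 46), the chr6, chr12 and chr3 bars are mostly neither (93 of 108, 63 of 79 and 67 of 74), and the chr16 and chr1 bars have their largest piece past gene ends (22 of 44 and 24 of 44).

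The bins thus fell into 3 kinds. In chr6 120-121 Mb, chr12 85-86 Mb and chr3 117-118 Mb most intergenic peaks had single-copy sequence far from gene ends. In chr5 70-71 Mb, chr9 41-42 Mb and the chr15 bins they lay in duplicated sequence. In chr16 30-31 Mb and chr1 150-151 Mb they lay among closely spaced genes. A longer window separated the bins further. When 1000 bp around the summit were aligned, a block of at least 900 bp with 95% identity elsewhere was found for 0 of 108, 0 of 79 and 0 of 74 intergenic peaks of the chr6, chr12 and chr3 bins, which allows shares of up to 3.43%, 4.64% and 4.93%, and for 65 of 66, 42 of 42, 40 of 50 and 42 of 46 of those in the chr5, chr9, first and second chr15 bins. The share over all intergenic peaks of the list was 8.2%. The few copies in the chr6, chr12 and chr3 bins were mostly of sequences that occur more than 20 times (8 of 12, 6 of 8 and 3 of 3), as interspersed repeats do.

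To read a direction from a list without strand, a peak was given a putative strand where at least 18 of 25 bases within 50 bp past one edge were A on the strand that runs out of that edge, and the mirrored stretch at the other edge was not. Among intronic peaks outside the bins, whose gene gives the strand, this rule named the right strand in 33955 of 37765 (89.9%, 89.6 to 90.2), and among intronic members in 154 of 177 (87.0%, 81.3 to 91.2). It gave a strand to 183 of the 553 intergenic members (33.1%), close to the 34.1% in the list. The rule uses the same A stretches that can prime inside an RNA, so it reads the strand of the transcript and not whether its end lies there. A hexamer found on one strand only named the strand of intronic peaks less often (72.7%) and was used as another reading.

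In chr6 120-121 Mb the direction was plus. Of the 147 peaks, 108 (73.5%) were intergenic, 37 lay in noncoding genes only and none lay in a protein-coding gene. The bin overlaps 6 annotated genes, 0 of them protein-coding. Of the intergenic peaks with a putative strand, 39 were plus and 2 minus (95.1% plus, 83.9 to 98.7). Counting all members, 56 were plus and 2 minus, and both minus peaks lay in the last 100 kb of the bin. Hexamers on one strand only read the same way, plus in 54 intergenic peaks and minus in 9. Only 1 of the 108 intergenic peaks lay in a RefSeq gene, where the share in the list was 19.6%, and 5 lay within 10 kb past a gene end.

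The chr6 peaks began abruptly and thinned out along the plus strand. The 300 kb before the bin held 0, 1 and 1 peaks per 100 kb. The first 100 kb of the bin then held 29, and the next steps of 100 kb held 21, 24, 21, 10, 16, 16, 7, 1 and 2. The summed reads at the summits were 365 in the first 100 kb, 264, 251 and 197 in the next 3 steps, and 5 in the step from 800 to 900 kb. The reads of single peaks fell along the plus strand (Spearman rho −0.49 over 147 peaks), and so did the local background of 10 kb around them (rho −0.62). These points share 1 pooled list and 1 background estimate, and the values are descriptive.

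The highest intergenic peaks of the chr6 bin lay at its beginning. The peak at chr6:120016875-120016995 had 28 reads, chr6:120009399-120009513 had 26 reads and chr6:120192705-120192989 had 24 reads. The second and the last of these carried the plus strand. The first of them had a copy with 2 mismatches and lay 1653 bp past MIR3144, a microRNA gene at chr6:120015179-120015257 on the plus strand. A further 2 peaks at the end of MIR3144 had up to 22 reads, both plus. Runs are intergenic peaks with neighbours at most 10 kb apart, and the longest is the one with the most peaks. That of the chr6 bin held 18 peaks over 48.0 kb at chr6:120029265-120077250. Its peaks had 5 to 16 reads (median 11), 7 were plus and 0 minus. The nearest protein-coding gene on the left, MAN1A1, lies 680 kb away on the minus strand, with its 5′ end towards the bin. In the middle of the bin the long noncoding RNA gene ENSG00000286540 (chr6:120462511-120706789, plus strand) held 37 peaks, 15 of them plus and 0 minus, with up to 16 reads. The 4 steps of 100 kb before this gene had 12, 5, 7 and 10 plus and 0 minus. In the 300 kb past the bin, where TBC1D32, a gene of cilia on the minus strand, lies, they were 0 plus and 2, 2 and 5 minus.

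In chr12 85-86 Mb the direction was plus as well. Of 108 peaks, 79 (73.1%) were intergenic. The intergenic putative strands were 29 plus and 0 minus (100% plus, 88.3 to 100), and hexamers on one strand only were plus in 27 and minus in 5. The first 3 steps of 100 kb, which LRRIQ1 on the plus strand mostly covers, held 8, 3 and 7 peaks. They then numbered 23, 20 and 23 in the 3 steps from 300 to 600 kb and 9, 9, 4 and 2 after that. The dense stretch followed ALX1, a homeobox transcription factor gene at chr12:85280220-85301784 on the plus strand, which held 5 peaks of up to 26 reads. It next covered LINC02820, a plus-strand long noncoding RNA gene with 6 peaks.

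The chr12 peaks continued far past both genes. The 3 longest runs held 13 peaks each, the first of them over 47.2 kb at chr12:85401178-85448328, with 5 to 18 reads (median 10), 3 plus and 0 minus. This run lay 58.3 kb past the Gencode end of LINC02820 and 99.4 kb past ALX1. A run of 13 peaks from 85560529 to 85609289 had 9 plus and 0 minus. The highest intergenic peaks were at chr12:85434573-85434683 with 18 reads, chr12:85448210-85448328 with 17 reads and chr12:85497967-85498090 with 17 reads, the last with a copy with 1 mismatch. Annotation decided how part of them was classed. RefSeq draws LINC02820 from 85318019 to 85490127, past the Gencode end at 85342912, and 30 of the 79 intergenic peaks lay inside that longer gene. A total of 36 (45.6%, 35.0 to 56.5) lay in some RefSeq gene. The reads fell less along the bin than on chr6 (rho −0.23 over 108 peaks).

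In chr3 117-118 Mb the direction was minus. Of 139 peaks, 74 (53.2%) were intergenic, and their putative strands were 1 plus and 38 minus (2.56% plus, 0.454 to 13.2). Over all members they were 1 plus and 61 minus. Hexamers on one strand only were plus in 9 and minus in 27 intergenic peaks. No peak lay in the 300 kb to the right of the bin, and the first peaks met from that side lay in LINC03051, a long noncoding RNA gene on the minus strand at chr3:117672154-117997592. LINC03051 held 47 peaks, 13 minus and 0 plus, with up to 17 reads. Peaks continued through intergenic sequence to the start of LSAMP, at 117139389, and on into that gene. LSAMP is a long minus-strand gene for a cell adhesion protein of neurons, and its part in the bin held 18 peaks of up to 10 reads, 10 minus and 0 plus.

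The chr3 peaks were low and spread over the whole bin. Read along the minus strand, the 10 steps of 100 kb held 17, 13, 11, 17, 17, 16, 9, 17, 8 and 14 peaks. The median of the intergenic peaks was 7 reads, compared with 9 reads in the chr6 and 8 reads in the chr12 bin. The reads fell along the minus strand with rho −0.27 over 139 peaks. Both longest runs held 10 peaks, 6 minus and 0 plus, and the first of them covered 39.9 kb at chr3:117203134-117243011, 63.7 kb upstream of LSAMP on its own strand. The highest intergenic peaks were at chr3:117642428-117642539 with 20 reads, chr3:117483325-117483448 with 17 reads and chr3:117666288-117666422 with 15 reads. The summit of the first lay 55 bp inside the left boundary of the RefSeq long noncoding gene LOC124906270 (chr3:117642414-117677523), and that of the second 69 bp inside the left boundary of LOC105374056 (chr3:117483321-117539755). Both peaks had a minus putative strand, on which a left boundary is a 3′ end. The RefSeq table used carries no strand. In all, 35 of the 74 intergenic peaks (47.3%, 36.3 to 58.5) lay in RefSeq long noncoding genes, 18 of them in LOC124909415. Such boundaries were not common among the members, since 13 of 553 intergenic peaks (2.35%, 1.38 to 3.98) lay within 200 bp of one, compared with 3.82% in the list.

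**Figure D2:**
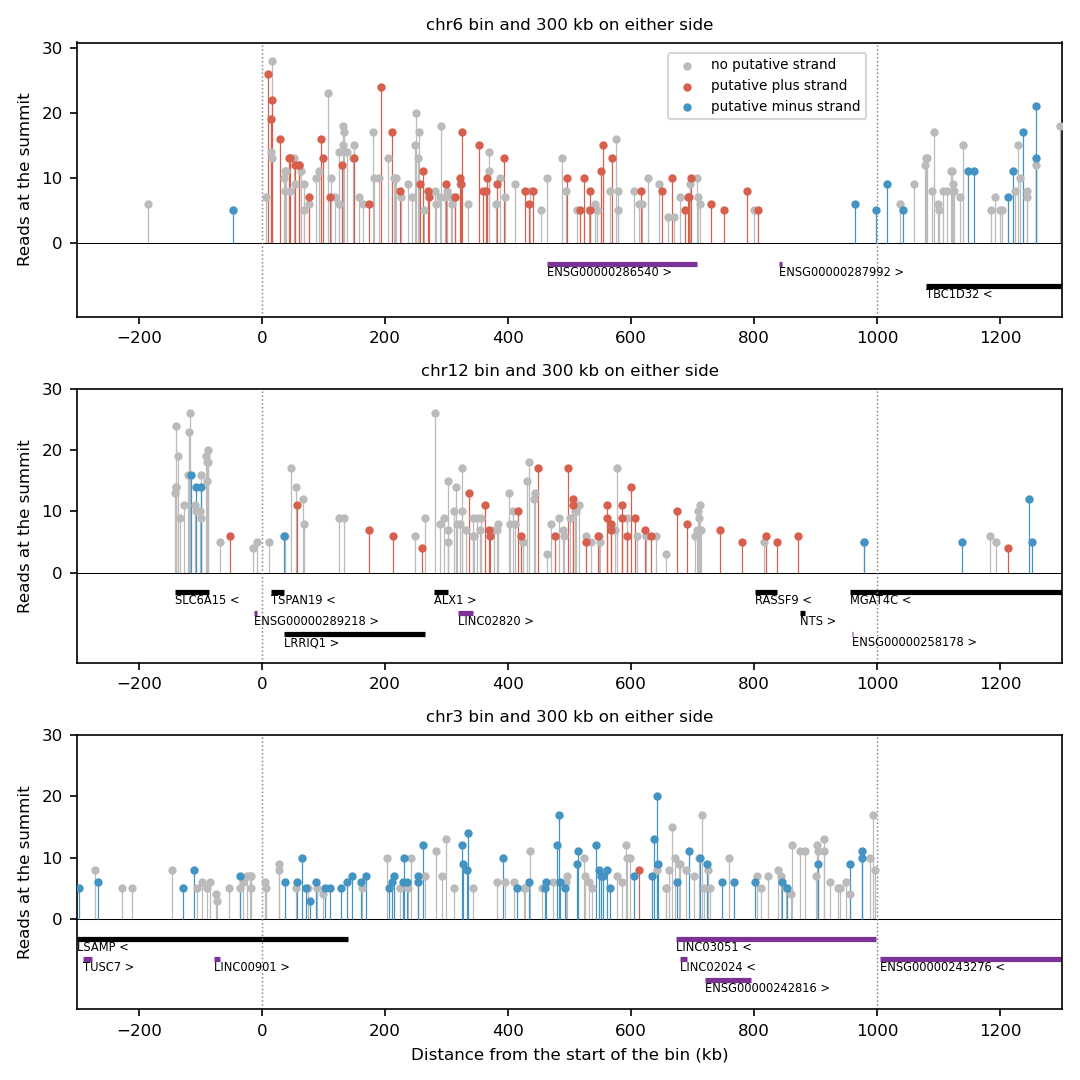
Reads at the summit (y axis) of every peak in the chr6, chr12 and chr3 bins and 300 kb on either side (x axis, kb from the start of the bin, dotted lines at the bin edges), coloured by putative strand, with protein-coding genes (black) and long noncoding RNA genes (purple) below and arrows for their strand. Peaks with a putative strand are mostly plus in the chr6 bin from its start and in the chr12 bin after ALX1. They are mostly minus in the chr3 bin from LINC03051 to LSAMP.

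The one-sidedness of these bins was set against the list. Only 4 bins of the list had at least 20 intergenic peaks with a putative strand, and all 4 had at least 90% of them on one strand: these 3 bins and chr3 144-145 Mb. With at least 10 such peaks there were 69 bins, of which 15 had at least 90% on one strand, with a median of 70% on the more frequent strand. The remaining 6 bins had between 9 and 15 intergenic peaks with a putative strand. Of these, chr5 70-71 Mb had 8 plus and 7 minus, chr16 30-31 Mb had 6 and 8, chr1 150-151 Mb had 3 and 8, chr9 41-42 Mb had 8 and 3, chr15 30-31 Mb had 12 and 2, and chr15 32-33 Mb had 1 and 8.

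**Figure D3:**
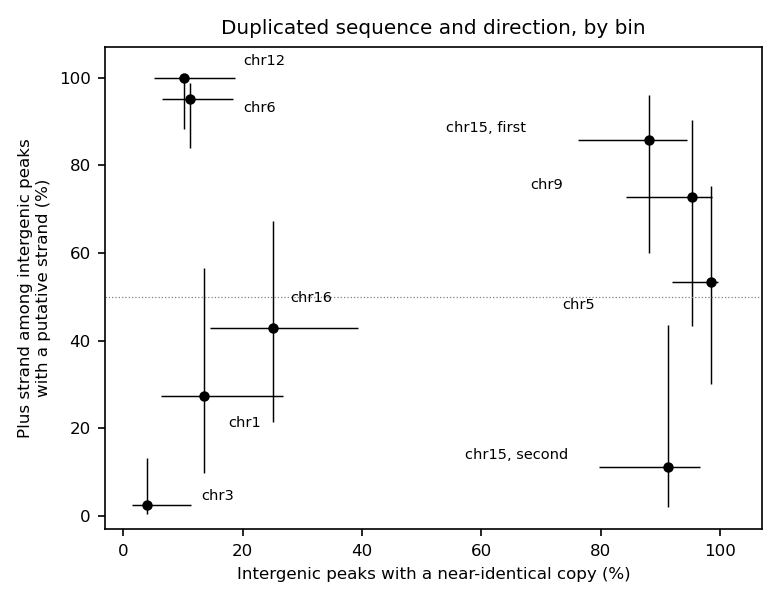
Share of intergenic peaks with a near-identical copy (x axis, %) against the share of plus among intergenic peaks with a putative strand (y axis, %) for each bin, with 95% Wilson intervals and the even split as a dotted line. The chr6 and chr12 bins lie at the top left (95.1% and 100% plus) and the chr3 bin at the bottom left (2.56%), while the chr5, chr9 and chr15 bins lie at the right with wide vertical intervals.

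In chr5 70-71 Mb nearly every peak was duplicated. A near-identical copy was found for 142 of 146 peaks (97.3%, 93.2 to 98.9), where the share over all peaks of the list was 13.4%. For 131 of them the best copy matched all 100 bases, and for 123 a copy lay in the same bin. The bin holds SMN1 and SMN2, which encode the protein that assembles the small nuclear ribonucleoproteins of splicing. Loss of SMN1 causes spinal muscular atrophy. SMN1 (chr5:70925030-70953942, plus strand) held 10 peaks with 175 summed reads and SMN2 (chr5:70049638-70078522, plus strand) held 7 peaks with 113. The peaks near their 3′ ends, identical over 100 bases, had 30 reads at SMN1 and 23 at SMN2. These values cannot be read as levels of either gene, because the reads of identical sequence could be placed at both. NAIP, an inflammasome sensor gene next to SMN1, held 9 peaks, all with a copy.

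The intergenic peaks of the chr5 bin, 65 of 66 with a copy, clustered around pseudogenes. The longest run held 13 peaks over 63.6 kb at chr5:70128376-70192001, all with a copy, with 5 to 18 reads, 0 plus and 3 minus. A run of 12 peaks at chr5:70844609-70876689 had 2 plus and 0 minus. The highest peaks were at chr5:70480676-70481132 with 28 reads, chr5:70567716-70567902 with 26 reads and chr5:70272226-70272625 with 25 reads, each with a perfect copy. In RefSeq, 53 of the 66 (80.3%, 69.2 to 88.1) fell inside genes, 21 in GUSBP14, 14 in GUSBP16 and 7 in GUSBP15, transcribed pseudogenes of the beta-glucuronidase gene. Copies of members with at most 20 copies also lay at chr5 71-72 Mb (93 members), chr5 69-70 Mb (85), chr5 21-22 Mb (51) and chr6 26-27 Mb (34).

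The 2 chr15 bins share duplicated sequence. In chr15 30-31 Mb 108 of 155 peaks (69.7%, 62.0 to 76.4) had a copy, and in chr15 32-33 Mb 86 of 168 (51.2%, 43.7 to 58.6). Of the members with at most 20 copies, 80 of the first bin had one in the second, and 70 of the second had one in the first. These bins contain CHRNA7, the gene of the alpha7 nicotinic acetylcholine receptor, its partial duplicate CHRFAM7A, and members of the GOLGA8 golgin family. Across the 2 bins there were 19 pairs in which 1 peak has its only copy at a window that carries the other peak. In 16 of them the windows were inverted relative to each other. The other peak of a pair can have further copies, and a peak can occur in several pairs. CHRNA7 held 40 peaks of the second bin, 8 with a copy, and up to 30 reads. FMN1, a formin gene on the minus strand, held 30 there, 3 with a copy, with 1 plus and 14 minus. In the first bin the protein-coding gene ENSG00000284906, on the plus strand, held the most peaks, 32, of which 18 had a copy, with 10 plus and 0 minus. FAN1, which encodes a nuclease for repair of DNA crosslinks, held 15 peaks, 2 with a copy, and MTMR10 held 13, 0 with a copy.

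The intergenic chr15 peaks were copies in 44 of 50 and 42 of 46 cases. The longest run of the first bin, 16 peaks over 47.6 kb at chr15:30294026-30341672, and that of the second, 12 peaks over 42.9 kb at chr15:32299229-32342091, lay in duplicated blocks throughout. The latter had the higher peaks, 5 to 42 reads (median 20), with 0 plus and 4 minus. The highest peaks of the first bin were at chr15:30357592-30357876 with 26 reads, chr15:30132399-30132562 with 25 reads and chr15:30358264-30358369 with 25 reads. The last is an exact copy of a peak at the other bin that also has 25 reads. The highest of the second bin were at chr15:32337125-32337256 with 42 reads, chr15:32324048-32324435 with 25 reads and chr15:32341979-32342091 with 24 reads, each with a perfect copy. Annotation treated the copies unequally. In RefSeq, 41 of the 46 intergenic peaks of the second bin (89.1%, 77.0 to 95.3) lay in genes, 37 of them in the long noncoding gene LOC102724078, and 0 of 50 of the first bin did, which allows a share of up to 7.13%.

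**Figure D4:**
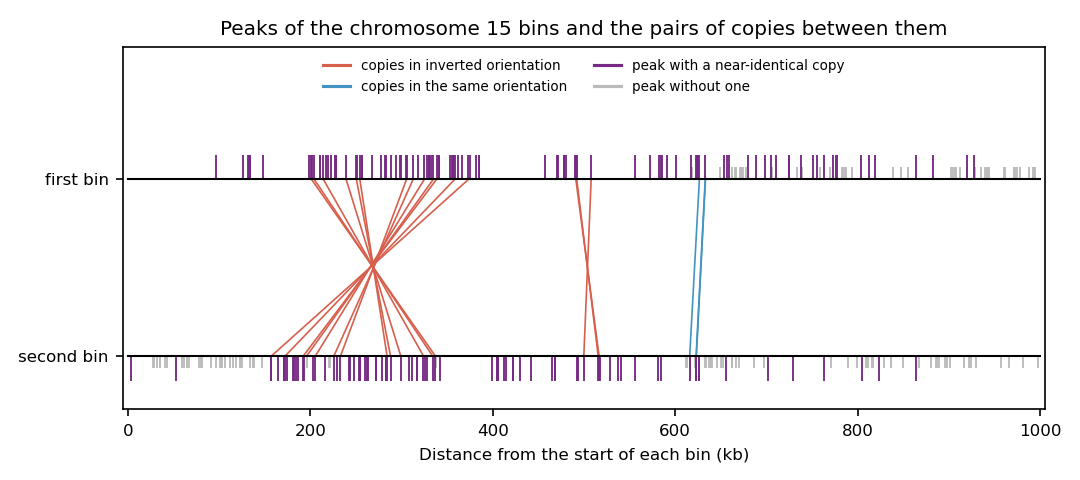
Member peaks of chr15 30-31 Mb (first bin, top) and chr15 32-33 Mb (second bin, bottom) by distance from the start of each bin (x axis, kb). Tall purple ticks mark peaks with a near-identical copy and short grey ticks mark the others. Lines join the 19 pairs in which a peak has its only copy at a window that carries the other peak. That other peak can have further copies. The 16 inverted pairs cross in the left part of the plot and near its middle, and the 3 pairs in the same orientation run side by side to their right.

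In chr9 41-42 Mb, 104 of 109 peaks (95.4%, 89.7 to 98) had a near-identical copy and all 109 lay in a duplicated block. Unlike on chr5, only 1 had a copy in the same bin, while 99 had one elsewhere on chr9, most often at 63-64 Mb (36 members), 65-66 Mb (33) and 67-68 Mb (31). A perfect match was found for 56. Most had 2 to 20 copies (84 peaks). Noncoding genes alone held 51 of 109 peaks (46.8%, 37.7 to 56.1). The pseudogene FRG1HP held 30 peaks, a count that includes any in the protein-coding gene ZNG1F, which lies within it and held 9. The long noncoding RNA gene ENSG00000288891 held 18, 9 plus and 0 minus. The longest intergenic run held 14 peaks over 45.5 kb at chr9:41223622-41269091, between FRG1HP and ENSG00000279561, all with a copy, 0 plus and 2 minus. Within it, the intergenic peak at chr9:41231590-41231788 had 57 reads, the most of any intergenic member, and a copy with 1 mismatch. The next had 29 reads at chr9:41649252-41649478 and 26 reads at chr9:41258102-41258230.

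Peaks on identical copies had unequal reads. Among members with exactly 1 copy, 133 had a perfect one, and the list had a peak on it for 51 (38.3%). Of these 51 members, the reads were equal in 6 (11.8%) and within 20% in 13. A pair with both peaks in the bins can be counted here from either side. Among the 31 distinct identical pairs, 4 had equal reads. With 1 to 5 mismatches, 17 of 47 members (36.2%) had a peak on the copy. The 45 distinct pairs with peaks on both windows had a median ratio of 1.33 between the higher and the lower, up to 5.62. That largest ratio was a peak of 45 reads in chr1 150-151 Mb against 8 reads on chr14, with 3 mismatches. Mapping allowed a read as many as 20 placements, per the study's methods. How the placements of one read were counted is not given in the sources used here. The reads at a window in duplicated sequence therefore cannot be assigned to that window.

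**Figure D5:**
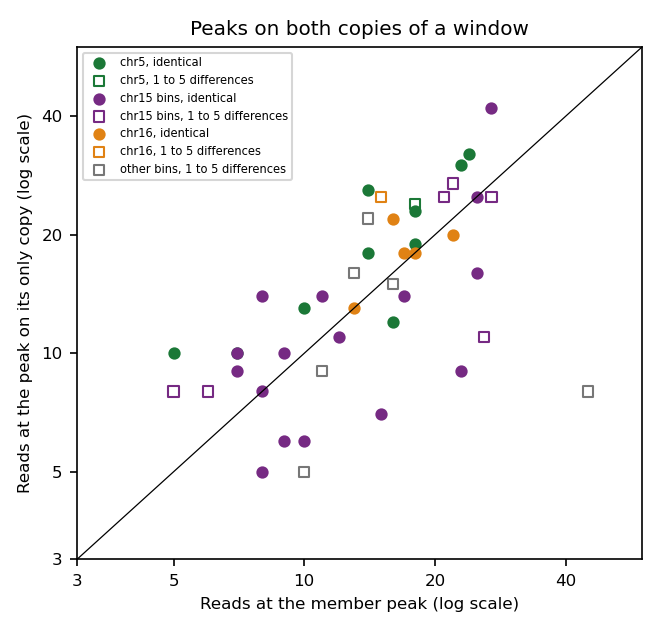
Reads at a member peak (x axis, log scale) against reads at the peak on its only copy (y axis, log scale) for the 45 distinct pairs, filled for identical windows and open for 1 to 5 differences, coloured by bin, with the line of equal reads. Few pairs lie on the line (4 of 45), and the pair with the largest ratio, 5.62, lies at the lower right.

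In chr16 30-31 Mb and chr1 150-151 Mb genes were dense. The chr16 bin overlaps 104 annotated genes, 49 of them protein-coding, and the chr1 bin 53, of which 26 are protein-coding. Peaks lay in or at the ends of 48 and 25 of these protein-coding genes. The intergenic share was the lowest of the 9 bins, 20% of 220 peaks and 21.3% of 207. Within 10 kb past a gene end lay 30 of 44 intergenic peaks in the chr16 bin (68.2%, 53.4 to 80.0) and 29 of 44 in the chr1 bin (65.9%, 51.1 to 78.1), where the share in the list was 44.6%. The gene ends were those of 30 genes. Of these 59 peaks, 33 lay within 10 kb past the end of a protein-coding gene. A near-identical copy was found for 8 of them in the chr16 and 5 in the chr1 bin. Of the 13 among all 59 peaks with a putative strand, 10 had the strand of the gene before them. Hexamers on one strand only matched the gene in 21 and went against it in 7. The share of all places in these bins that lie within 10 kb past a gene end was not measured. With genes this close together, the distance alone does not show that the RNA came from that gene.

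ALDOA, the gene of the glycolytic enzyme aldolase A on the plus strand, had the most such peaks without a copy. It was followed by 5 intergenic peaks at 1704 to 4703 bp past its end, before PPP4C, with 21 to 35 reads, 1 plus and 0 minus, and none of them had a copy. FBXL19-AS1, an antisense RNA gene on the minus strand, was followed by 2 peaks of up to 42 reads at 2157 and 3169 bp. SEPHS2, a selenophosphate synthetase gene, was followed by 2 peaks of up to 32 reads at 1131 and 3046 bp. The longest intergenic run of the chr16 bin, 8 peaks over 21.0 kb at chr16:30788114-30809146, lay beyond the start of ZNF629 and had 3 plus and 1 minus. Another 6 peaks at chr16:30255479-30266885, between NPIPB13 and SMG1P5, were all duplicated. SMG1P5, a pseudogene of the kinase SMG1, held 18 peaks, 16 with a copy. In genes, SRCAP, a chromatin remodeller, and BCL7C, a chromatin remodelling subunit, held 11 peaks each, with up to 32 and 22 reads.

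In the chr1 bin the highest intergenic peak, 39 reads at chr1:150148623-150148779, lay 3361 bp past VPS45, a gene of vesicle transport, and 493 bp before PLEKHO1. This peak had no putative strand and a hexamer on the minus strand only, while VPS45 is on the plus strand. The next, 32 reads at chr1:150309668-150309826, lay 777 bp past MRPS21, a gene of the mitochondrial ribosome. The peak at chr1:150582105-150582326 had 27 reads and a copy with 5 mismatches. The longest run, 10 peaks over 27.3 kb at chr1:150014530-150041810, had 8 to 17 reads, 0 plus and 3 minus. It lay 3.80 kb upstream of OTUD7B in Gencode, but all 10 peaks fell inside the longer OTUD7B of RefSeq (chr1:149937812-150067653), a minus-strand gene. The same 10 peaks also fell inside the RefSeq long noncoding gene LOC124904413 (chr1:150012463-150057523). In Gencode, 4 of them lay 3910 to 9631 bp past the end of ENSG00000285184, the nearest gene on the right, also on the minus strand. Which of these genes the RNA came from was not tested. RefSeq genes held 23 of the 44 intergenic peaks (52.3%, 37.9 to 66.2). In genes, RPRD2, which encodes a protein that binds the polymerase tail, held 30 peaks, 12 plus and 1 minus on a plus-strand gene, and ARNT, the partner of the hypoxia-inducible factors, held 13.

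Over all 9 bins, 170 of the 553 intergenic peaks (30.7%, 27.0 to 34.7) lay within 10 kb past a gene end, and 104 of these had a near-identical copy as well. Of the 40 with a putative strand, 26 had the strand of that gene. At more than 50 kb past the nearest gene end lay 228 (41.2%), compared with 18.6% in the list. The median distance was 134 kb in the chr6, 72.6 kb in the chr12 and 182 kb in the chr3 bin, and 6.16 kb and 5.34 kb in the chr16 and chr1 bins. In these last, the median local background was 209.5 and 102.5 reads per 10 kb, and in the chr6, chr12 and chr3 bins it was 66, 47 and 35. The background had a floor of 33.7 reads per 10 kb.

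Noncoding genes alone held 285 of the 1399 members (20.4%, 18.3 to 22.6), compared with 8.19% of all peaks. The share ran from 4.63% in the chr12 bin and 6.76% in the chr1 bin to 33.1% in the chr3 and 46.8% in the chr9 bin. When RefSeq genes were added, 205 of the 553 intergenic peaks (37.1%, 33.1 to 41.2) lay in a gene, and 348 of the 1399 members (24.9%) stayed outside.

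Polyadenylation hexamers were about as frequent beside the intergenic members as in their surroundings, except for AATAAA. The 12 hexamers of the study were searched on both strands in the 100 bp inside either edge. With N for any base, these are every word of the form ANTAAA, those of the form NATAAA, those of the form AATANA, together with the single word AATGAA as well as the single word AAGAAA. Matches may overlap one another. At least 1 was found at 400 of 553 (72.3%, 68.5 to 75.9), compared with 62.4% of intergenic peaks in the list, and at 410 (74.1%) in windows of the same length starting 200 bp outside the peak. AATAAA was found at 190 (34.4%, 30.5 to 38.4) and in 100 of the outside windows (18.1%, 15.1 to 21.5). In the list these shares were 32.4% and 14.6%. A match says only that the letters are there.

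Most members were not strong peaks. Over all members the reads at the summit ran from 3 to 67 with a median of 11, which was also the median of the list, whose highest peak had 200. A −log10 q-value of at least 5 was reached by 993 of 1399 members (71%), compared with 69.3% of all peaks, and a value of at least 20 by 75. The intergenic members had a median of 10 reads, compared with 9 in the list.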

How the data were processed

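Poly(A) 3′-end libraries of IMR-32 cells were trimmed with bbduk and mapped to GRCh38 with STAR 2.5.1b by the authors, who kept reads with up to 20 placements, merged the samples and called peaks once with MACS2 2.1.1 without a control. The merged samples are taken to be the 6 libraries. The study's methods then remove peaks that have a genomic A stretch past them and no hexamer. Whether the deposited list precedes that step is not stated there, so such peaks can be among the members. The deposited fold enrichment is the ratio of pileup plus 1 to local background plus 1. The deposited list also gives −log10 p-values and −log10 q-values, and a deposited score that was not used. Other deposited columns are the start and end of each peak and the offset of its summit.

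The pileup was solved from fold and p (largest misfit 0.000172 in −log10 p). Its background had a floor of 0.337 reads per 100 bp, or 33.7 per 10 kb, at 22.2% of peaks, and no background below it was admitted. Summits were classed with Gencode 44 as transcript end (from 200 bp before to 600 bp past it), else exon, else intron, else intergenic. RefSeq genes came from the GRCh38.p14 table. Copies were sought over chromosomes and contigs by an ungapped search with seeds of 16 bases, complete to 5 mismatches, tested on simulated copies. This replaced the blastn search planned for the whole list. Duplicated blocks came from minimap2 2.31. Python 3.11.15, numpy, pandas, scipy and pysam were used. Members and gene lists were chosen with earlier results of these data known. The rule for names took, in each bin, up to 3 coding and noncoding genes with the most peaks, the run with the most peaks with its neighbours, and the 3 highest intergenic peaks. Not all genes and peaks of the rule are printed. It further names genes past whose ends peaks lay and RefSeq genes, which were chosen after their values were seen. No test was run, since the list is 1 pooled sample. Some marker genes and sequences are not reported here.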

Additional observations from a re-analysis of the deposited data

How the results depend on the processing

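No paired analysis was possible because peaks were called on merged reads, so no replicate could be left out either. The cause of a moved value was not tested unless the change itself sets it. The number of members fell from 1399 to 75 with −log10 q of at least 20. The intergenic share (39.5%) was 61.3% with protein-coding genes only, 24.9% with RefSeq genes added and 24% with −log10 q of at least 20. The share with a copy (38.9%) was 46.6% at 90 of 100 bases, which is a lower limit, 33.7% at 98 of 100 and 34.1% for blocks of 1000 bp. With blastn it was 40.6%. The share in noncoding genes only (20.4%) was 16.4% with lncRNA genes alone and 13.3% with −log10 q of at least 20. The share past gene ends (30.7%) was 19.7% within 5 kb, 58.8% within 50 kb, 9.76% for protein-coding genes and 35.3% with −log10 q of at least 5. The plus share (58.5%) was 44.8% with at least 22 A, over 29 peaks. The hexamer share (72.3%) was 34.4% for AATAAA, 42.7% for AATAAA or ATTAAA and 57.5% within 40 bp. Leaving out each bin in turn gave 35.5 to 43.2% intergenic, 32.1 to 44.1% with a copy, 18.1 to 22.7% in noncoding genes, 27.5 to 37.1% past gene ends, 47.9 to 73.6% plus and 70.6 to 74.3% with a hexamer. The pooled plus share was 47.9% without chr6 120-121 Mb and 73.6% without chr3 117-118 Mb, so it describes no bin. The blastn, block and RefSeq alternatives were chosen after seeing the data. Leaving out soft-masked windows was not run, since the reference used carries no mask. Depth per library is unknown.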
